A study of Homo sapiens with 24 samples.

Results

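The end points of a human pancreatic differentiation were compared by m6A-seq, in which RNA fragments bound by an antibody against N6-methyladenosine (IP) are sequenced beside the fragments before precipitation (input). A stretch of RNA enriched in IP over input is called a peak. The start was the pluripotent cell population (hPSCs) of MEL1, an established human embryonic stem cell line, and the end was the human islet-like organoids (hILOs) derived from it. The study describes MEL1 as an INS GFP/W reporter line, in which GFP is expressed from the endogenous insulin promoter, and it kept hPSCs on mouse CF1 feeder cells. hILOs were made from pancreatic progenitors as aggregates, in a medium that the labels schedule from day 15 to day 22. The methods of the study add a further medium after it, and the day of sampling is not stated in the labels. The labels give no further genetic change for either population. In both, mRNA was precipitated with a SYSY antibody and the libraries were labelled batch 1. Each population had 2 IP and 2 input libraries, so the comparison rests on 8 of the 24 libraries of the series. The lists of the intermediate stages were used only to look up genes with peaks at 1 end point.

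Members were taken by the presence of peaks. Of 16771 genes with a peak in hPSCs or hILOs, 14185 had a peak in hPSCs and 13268 in hILOs, where a gene is an identifier as deposited with the peak. Some of these identifiers join several overlapping genes. With the intermediate stages of the series, definitive endoderm (DE) and pancreatic progenitors (PP), the number of genes with a peak was 18346. The 36659 hPSC peaks and 31519 hILO peaks were each called on all libraries of a population together. No value per library was available for analysis, so no difference below has a replicate check or a test. Intervals are Wilson 95% intervals for shares and order-statistic 95% intervals for medians, and they cover counting error only, since peaks are not replicates.

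m6A is the most abundant internal modification of mRNA. It is written by a complex around METTL3 and METTL14, mostly at the motif DRACH, where D stands for any base but C, R for a purine and H for any base but G. It is removed by ALKBH5 and FTO, and is bound by readers such as the YTHDF proteins, which are known to promote mRNA decay. It concentrates in long exons and around stop codons. Pluripotent cells are held in their state by factors such as POU5F1, SOX2 and NANOG, whereas islet cells secrete hormones from dense granules under the control of factors such as PDX1, NKX2-2 and NEUROD1.

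A set of 12 stretches shows what a site looked like in each class of gene. Each line gives 29 nt of the transcript strand from GRCh38 around the DRACH site nearest the centre of a peak, a GGAC site where the peak held one, with the 5 bases of the site in capitals. The hormones INS and GCG, the prohormone convertase PCSK2 and the transcription factors PDX1 and NKX2-2 had peaks only in hILOs, and the pluripotency factors NANOG and DPPA4 only in hPSCs.
INS, coding sequence, chr11:2160904-2160932, minus strand: ctggccctctggGGACCtgacccagccgc
GCG, 5′UTR, chr2:162152221-162152249, minus strand: gtacagagcttaGGACAcagagcacatca
PCSK2, coding sequence before the stop codon, chr20:17481901-17481929, plus strand: tgctgaaggagtGGACCctgatgctgcat
PDX1, coding sequence, chr13:27924452-27924480, plus strand: gaaaaaggaggaGGACAagaagcgcggcg
NKX2-2, 3′UTR, chr20:21511606-21511634, minus strand: ctctccccggggGGACCaaaccgtcccag
NANOG, 3′UTR, chr12:7795119-7795147, plus strand: caatttcagtctGGACActggctgaatcc
DPPA4, 3′UTR, chr3:109327785-109327813, minus strand: gagtggagatagAGACTcttacatttaaa
SALL4, a zinc finger factor of pluripotent cells, PODXL, a sialomucin of their surface, and WTAP, a subunit of the m6A writer complex, carried a peak at the same place in both populations.
SALL4, last coding exon, chr20:51784519-51784547, minus strand: ttcagtgaatgtGGACCctgttgtgtgga
PODXL, 3′UTR, chr7:131504032-131504060, minus strand: aagccacgtaagGGACTttatagatgaac
WTAP, last exon, before the stop codon, chr6:159755563-159755591, plus strand: tcagaatggcttGGACTcaagtgtaaatg
The prohormone convertase PCSK1 and the cytoskeletal linker DST had peaks in both populations, and in hILOs a further peak over a short internal exon.
PCSK1, short internal coding exon, chr5:96398965-96398993, minus strand: agagcttgtgaaGGACAagaaaatgctat
DST, short internal coding exon, chr6:56508573-56508601, minus strand: agatttcatccgGGACCtggaagatcctg

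Depth was uneven between the populations, and several counts below changed with filters on p or input reads. The peaks held 79822815 IP reads in hPSCs and 77537744 in hILOs, but 7970658 and 28463998 input reads. A median peak had 66 input reads in hPSCs and 302 in hILOs, with a counting error of its log2 enrichment of 0.186 and 0.0989. Of the hPSC peaks 62.4% had a p below 1e-05, against 94.3% of the hILO peaks. The sources do not say if these pooled counts were summed or averaged over libraries. The abundance of a transcript was seen only through the input reads inside its peaks, so a gene without a peak was not shown to be unexpressed. In these bulk samples a smaller share of cells of a type and less RNA per cell cannot be told apart.

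The question at the gene level was which transcripts carried peaks at the start, at the end or at both. A peak in both lists was found for 10682 of 16771 genes, 63.7% (63.0% to 64.4%). A peak in hPSCs only was found for 3503 genes, 20.9% (20.3% to 21.5%), and a peak in hILOs only for 2586 genes, 15.4% (14.9% to 16.0%). More genes were thus specific to the start in the lists as deposited, but this order turned with the filter on peaks. At p below 1e-05, the limit given in the methods for calling peaks and not met by every deposited peak, the genes of hPSCs only and hILOs only numbered 2433 and 4156. They numbered 2245 and 4876 at p below 1e-10, and 2237 and 4535 with at least 50 input reads per peak. With lists of equal size they numbered 3039 and 3102. An IP/input enrichment of at least 3 gave 5159 and 2541. The filters on p and input reads removed more of the shallower hPSC list, and the filter on enrichment more of the hILO list.

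**Figure D1:**
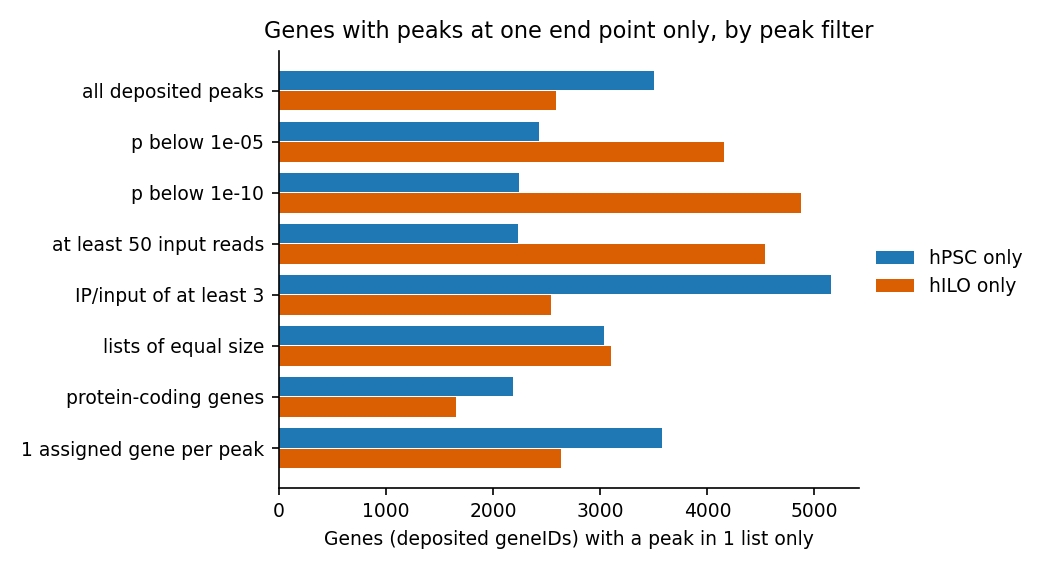
Number of genes (x axis) with a peak in hPSCs only (blue) or hILOs only (orange), for the deposited lists and under each filter or way of counting (y axis). hPSC-only genes outnumber hILO-only genes in the deposited lists, 3503 against 2586, and the order is the opposite at p below 1e-05, at p below 1e-10, with at least 50 input reads and, by a small margin, with lists of equal size.

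Genes of a single list differed in kind from genes of both. Protein-coding genes made up 84.5% of the genes of both lists, 61.9% of the hPSC-only genes and 63.5% of the hILO-only genes. Long noncoding RNAs (lncRNAs) made up 10.8%, 28.2% and 27.2%. A single peak was the rule among genes of 1 list, with 59.4% of the hPSC-only and 64.0% of the hILO-only genes, against 32.2% in hPSCs and 36.9% in hILOs for genes of both. The coding genes of 1 list had a shorter 3′UTR, with a median of 1117 nt for hPSC only and 1199 nt for hILO only against 1682 nt for both.

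The 2 private classes differed from each other in depth. The median number of input reads in the peaks of a gene was 83 for hPSC-only and 445.5 for hILO-only genes, against 261 in hPSCs and 832 in hILOs for genes of both lists. Fewer than 50 input reads lay behind 38.8% of the hPSC-only and 6.92% of the hILO-only genes. For genes of both lists these shares were 17.3% in hPSCs and 3.44% in hILOs. Thin input coverage was thus more common in hPSCs for either class of gene, and in each population more common among its private genes.

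The private genes were also looked up in the lists of the intermediate stages. Of the hPSC-only genes, 1850 (52.8%) still had a peak in DE, 1055 (30.1%) had one in PP, and 1334 (38.1%) had none in either. Of the hILO-only genes, 823 (31.8%) had a peak in DE, 956 (37.0%) in PP, and 1268 (49.0%) in neither. About as many hILO-only genes therefore had a peak at an intermediate stage, 51.0%, as had none before the end. No share over all genes is given for DE or PP, so these shares show neither an excess nor a deficit. The way genes were joined under a shared identifier touched few of these calls. A gene of the identifier was also part of an identifier of the other list for 177 (5.05%) of the hPSC-only and 136 (5.26%) of the hILO-only genes.

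The gene lists that follow were counted by gene symbol over all genes joined under an identifier. On this count 13357 protein-coding genes had a peak, of which 70.6% had one in both populations, 16.6% in hPSCs only and 12.8% in hILOs only. These shares are the background for each list.

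Pluripotency genes were split between loss and retention of peaks. Of 35 genes of this list 30 had a peak, 18 in hPSCs only, 12 in both and none in hILOs only, so that 60% were hPSC only against 16.6% of all coding genes. Their peaks numbered 99 in hPSCs and 27 in hILOs. DPPA4, a chromatin-associated factor of pluripotent cells, had 5 peaks with 6657 input reads in hPSCs and none in hILOs. TDGF1, the Nodal co-receptor, had 2 peaks with 5283 input reads, and VRTN had 5 peaks with 6202, both without a peak in hILOs. The homeobox factor NANOG had 3 hPSC peaks with only 121 input reads. POU5F1, the factor that defines the state, had 1 peak with 11 input reads, and SOX2 and the DNA methyltransferase DNMT3B had no peak in either list. The label of the start population was therefore met by most but not all of its defining genes at the level of peaks. NODAL and LEFTY2, a ligand and an inhibitor of one signalling pathway, had 2 peaks each, with 725 and 392 input reads, in hPSCs only.

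The pluripotency genes of both lists still lost part of their hPSC peaks in most cases, and over the whole list 76 of 99 hPSC peaks were lost. SALL4 had 7 peaks in hPSCs, 3 of them lost, and 5 in hILOs, all at places already marked in hPSCs, with 3845 and 3558 input reads. At the SALL4 site shown above the log2 enrichment was 2.40 ± 0.06 (counting error) in hPSCs and 2.09 ± 0.26 in hILOs, with 672 and 39 input reads. L1TD1, an RNA-binding protein of pluripotent cells, went from 5 peaks with 12369 input reads to 2 peaks with 65. Both hILO peaks were kept ones, and none of its hPSC peaks counted as lost. PODXL went from 7 peaks with 31264 input reads, 5 of them lost, to 3 with 527. At the PODXL site shown above the log2 enrichment was 2.05 ± 0.02 in hPSCs and 2.21 ± 0.13 in hILOs, on 9954 and 161 input reads. The input reads of PODXL thus differed far more between the lists than its enrichment at this site. LIN28A, which blocks let-7 processing, had 1 peak in each list at overlapping positions of its 3′UTR, the hILO one counted as new, with a log2 enrichment of 1.41 in hPSCs and 1.37 in hILOs.

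Islet transcription factors had peaks at the end and, for most, not at the start. Of 44 endocrine and pancreatic transcription factors 38 had a peak, 25 in hILOs only, 10 in both and 3 in hPSCs only, so that 65.8% were hILO only against 12.8% of all coding genes. Their peaks numbered 27 in hPSCs and 107 in hILOs. FOXA2, a pioneer factor of endoderm, had 3 peaks with 6248 input reads, and PDX1, which opens the pancreatic programme, had 2 with 4581. NKX2-2 had 3 peaks with 3086 input reads, NEUROD1 had 4 with 2296 and NKX6-1, a beta cell factor, had 2 with 1688. None of these had a peak in hPSCs. ONECUT2 carried 12 hILO peaks, the highest number of peaks in the list, with 7312 input reads. Its paralogue ONECUT1 had 5 peaks with 96 input reads in hPSCs and 4 with 5709 in hILOs. SOX9, a progenitor factor, had 2 hPSC peaks on 10 input reads and 1 hILO peak on 4893. PROX1, IRX1 and NKX6-2 had a peak in hPSCs only, on 5, 55 and 29 input reads. The endocrine progenitor factor NEUROG3 and the mature beta cell factor MAFA had no peak in either list.

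Hormone and granule genes had peaks in hILOs only or in both, with 1 exception. Of 24 genes 20 had a peak, 8 in hILOs only, 11 in both and 1, the convertase inhibitor PCSK1N, in hPSCs only. INS had 2 hILO peaks, and the one holding the site shown above had 24198 input reads and was enriched by 0.98 ± 0.01 on the log2 scale. SST had 2 hILO peaks with 4588 input reads and GCG 1 with 241, whereas PPY, GHRL and IAPP had none in either list. PCSK2 had 3 hILO peaks with 6636 input reads, and PTPRN, a membrane protein of the granule, had 3 with 1713. Other genes of the list, among them the convertase PCSK1 and the granule membrane protein PTPRN2, had peaks in both. CHGB had 2 peaks with 6149 input reads in hPSCs and 1 with 4733 in hILOs. CHGA had 2 with 218 in hPSCs and 1 with 25 in hILOs. SCG3 had 4 peaks with 1123 and 5 peaks with 1547 input reads.

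The genes of glucose sensing and exocytosis were also split between both lists and hILOs only. Of 35 genes 33 had a peak, 13 in hILOs only, 19 in both and 1 in hPSCs only. ABCC8, the sulfonylurea receptor, had 4 peaks with 1125 input reads in hILOs only. Its channel partner KCNJ11 had 5 hPSC peaks with 375 input reads and 4 hILO peaks with 3633. No hILO peak of KCNJ11 was a kept one, but only 2 of its hPSC peaks were lost and the others were covered by hILO peaks. The glucose transporter SLC2A2 and the SNARE protein STX1A had peaks in hILOs only, 1 with 4390 and 2 with 6455 input reads. SLC2A1, the transporter used by most cells, had 3 peaks in each list and all 3 were kept. RIMS2 and RAB3B, which act at docked granules, had peaks in both, and their numbers went from 7 to 11 and from 5 to 8.

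Markers of other cell types were present in the hILO list. All 12 hepatic genes with a peak, of 20 searched, had it in hILOs only, with 151231 input reads in hILOs and 0 in hPSCs. The fibrinogen gene FGB had 6 peaks with 70077 input reads, APOA1 had 3 with 38393 and APOB had 14 with 15132. ALB and AFP had 1 peak each, with 611 and 510 input reads. The hepatic genes held more input reads in hILO peaks than the 85301 of the hormone and granule list, with 70077 from FGB alone. Reads inside the peaks of unlike lists do not compare amounts of RNA. Of 18 ductal, acinar and intestinal markers 8 had a peak, 3 of them in hILOs only. These were CDX2, VIL1 and TPH1, the last of which, a serotonin-synthesizing enzyme, is also expressed in beta cells, with 7644, 10652 and 13681 input reads. Of 18 mesenchymal markers 15 had a peak, 5 in each class, with 10654 input reads in hPSCs and 27842 in hILOs. Of 25 neuronal markers, many of which islet cells also express, 20 had a peak, 6 in hILOs only and 3 in hPSCs only. Of 9 endothelial and blood markers KDR and TEK had peaks, in hPSCs only. The part of these cell types in the hILO-only genes was not tested.

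Most m6A factors had peaks at both ends. Of 29 genes 28 had a peak, 26 in both, 2 in hPSCs only and none in hILOs only. The writer METTL3 had 4 peaks in hPSCs and 2 in hILOs, both kept, and METTL14 had 4 and 3. All 5 hILO peaks of WTAP were kept. At the WTAP site shown above the log2 enrichment was 2.43 ± 0.06 in hPSCs and 1.06 ± 0.03 in hILOs, with 597 and 4406 input reads. The eraser ALKBH5 had 3 peaks in each list, and FTO, the other eraser, had none. The readers YTHDF1 and YTHDF2 had 5 and 5 peaks in hPSCs, and 5 and 4 in hILOs. The cap-adjacent methyltransferase PCIF1 and the ribosomal RNA methyltransferase ZCCHC4 had 1 peak each in hPSCs only, on 68 and 62 input reads.

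Chromatin regulators and the unfolded protein response carried peaks at both ends throughout. All 43 chromatin regulators with a peak, of 44, had it in both, with 301 peaks in hPSCs and 274 in hILOs, of which 183 were kept and 91 new. KMT2A, a histone methyltransferase, had 21 and 18 peaks and kept 15. The input reads behind equal calls were far apart for several of these genes. EZH2, the catalytic subunit of Polycomb complex PRC2, had 3 peaks in each list on 14 input reads in hPSCs and 8571 in hILOs, and SUZ12 of the same complex had 35 and 4612. TET2, a DNA demethylation enzyme, had 4 peaks on 18 and 8 peaks on 1887, and KMT2B went the other way with 14230 and 514. All 23 genes of the unfolded protein response with a peak had it in both. HSPA5, the main chaperone of the endoplasmic reticulum, had 1 kept peak at its stop codon, with a log2 enrichment of 2.02 in hPSCs and 1.79 in hILOs.

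Signalling and cell cycle genes lay between these extremes. Of 40 cell cycle and replication genes 26 had peaks in both, 11 in hPSCs only and 3 in hILOs only. The mitotic kinase PLK1, the checkpoint kinase BUB1, the cyclin CCNE1 and the replication clamp PCNA had peaks in hPSCs only, on 130, 688, 641 and 580 input reads. The cyclin-dependent kinase inhibitors CDKN1C and CDKN2A had 1 peak each in hILOs only, on 215 and 101 input reads. The third hILO-only gene, the thymidylate synthase TYMS, which supplies DNA replication, had 2 peaks on 3752. MKI67, a proliferation marker, had 15 peaks in hPSCs and 16 in hILOs, 13 of them kept. Of 32 Nodal, TGF-beta and BMP genes with a peak 26 had it in both, 5 in hPSCs only and 1, the ligand TGFB2, in hILOs only. The 5 were the ligands NODAL and GDF3, the antagonists LEFTY2 and CER1, and TDGF1. Of 30 Wnt genes 25 had peaks in both, 4 in hPSCs only and 1, WNT11, in hILOs only. Of 25 Notch genes these numbers were 18, 4 and 3. All type I and type II receptors and SMADs of the Nodal, TGF-beta and BMP list that had a peak had it in both, whereas the Wnt receptor FZD8 and the Notch receptor NOTCH4 had peaks in hPSCs only, 8 on 380 and 2 on 261 input reads.

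The private genes with the most peaks were counted over all genes. In hILOs they were APOB and the adhesion receptor ADGRG4 with 14 each, ONECUT2 with 12, the teneurin TENM4 with 11, and NCKAP5 and the transcription factor PRDM16 with 10 each. In hPSCs they were the mucin MUC4 and the kinase LRRK1 with 15 each, PLEKHG4B and ARHGEF4 with 11, and the proteoglycan CSPG4 and the glycan-modifying enzyme B3GAT1 with 10. The input behind them differed. MUC4 and LRRK1 rested on 257 and 303 input reads in all their peaks, and APOB and ADGRG4 on 15132 and 6334. IGF2, a fetal growth factor, stood among the hILO-only genes with the most IP reads per kilobase. Under an identifier of 4 joined genes it had 6 peaks with 714557 input and 2656204 IP reads, and its main peak, in the 3′UTR at chr11:2131287-2132186, held 2114852 IP reads at a log2 enrichment of 2.18. Among hPSC-only genes by the same measure were ADCYAP1R1, a receptor for the peptide PACAP, with 2 peaks and 9501 input reads, and the forkhead factor FOXD1, with 2 and 5519.

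At the level of positions, a peak counted as kept in hILOs, or retained in hPSCs, when peaks of the other population covered over 50% of its exonic bases on its strand. Of the hILO peaks 17243 were kept and 14276 (45.3%) were new, 10043 on genes of both lists and 4233 on hILO-only genes. Of the hPSC peaks 17957 were retained and 18702 (51.0%) were lost, 12444 on genes of both lists and 6258 on hPSC-only genes. The kept share of 54.7% was 28.3% at p below 1e-10, and the retained share of 49.0% was 26.3% at an IP/input enrichment of at least 3. At p below 1e-05 the order of the kept and retained shares turned, with 40.1% and 53.1%. Most new and lost peaks were on genes with peaks at both ends, which also held most peaks of each list. New peaks on hILO-only genes were 13.4% of all hILO peaks, and lost peaks on hPSC-only genes 17.1% of all hPSC peaks. A peak on a gene of 1 list is new or lost unless peaks under another identifier cover it. These counts therefore do not compare turnover between classes of gene. Of the 10682 genes of both lists 9163 (85.8%) had a kept peak, 5559 (52.0%) a new one, 6163 (57.7%) a lost one and 3390 (31.7%) both new and lost ones. For 2350 (22.0%) every hILO peak was kept and every hPSC peak retained. For 820 (7.68%) no hILO peak was kept and no hPSC peak retained. A new peak may still contain a narrower hPSC peak, and a lost peak may contain a narrower hILO peak that counts as kept. The last-exon peak of PCSK1 in hILOs, at chr5:96392883-96394867, was new, although it contained the single hPSC peak of the gene, at chr5:96392958-96393107.

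Single genes with many peaks showed each kind of turnover, among genes with at least 200 input reads in peaks in both lists. DST had 30 hPSC and 41 hILO peaks, of which 28 were new and 13 kept, with 1755 and 22860 input reads. ZFHX3, a large homeobox factor, had 5 and 20 peaks and 20 were new, while 3 of its 5 hPSC peaks were lost. The scaffold AKAP9 had 12 new of 15 and the giant scaffold AHNAK 13 new of 25. Lost peaks were most frequent in the protocadherin gamma cluster, counted under PCDHGC5 with 22 joined genes, which had 58 hPSC peaks, 56 of them lost, and 6 hILO peaks. ALMS1, a centrosomal protein, lost 17 of 18, yet 5 of its 6 hILO peaks were kept ones. Its peaks covered 8781 exonic nt in hPSCs and 1590 in hILOs. Kept peaks were most frequent in FAT1, a giant cadherin, with all 18 of its hILO peaks, in MACF1 with 17 of 28 and in the proteoglycan VCAN with 16 of 17. The same genes also lost 5 of 18, 13 of 22 and 9 of 20 hPSC peaks. ALMS1 had 1601 input reads in its hPSC peaks and 9999 in its hILO peaks.

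Kept and new peaks were placed on the longest coding isoform of their gene by their exonic midpoint. By region the kept and the new hILO peaks were alike. Among kept peaks 3.36% lay in the 5′UTR, 53.9% in the CDS and 42.8% in the 3′UTR, and among new peaks on genes of both lists 3.92%, 54.7% and 41.4%. The position within these regions differed. A midpoint within 200 nt of the stop codon was found for 24.9% of kept and 14.9% of new peaks. In the 3′UTR the median distance from the stop codon was 327 nt for kept and 842 nt for new peaks, and 24.7% and 45.1% lay more than 1000 nt beyond it. With the 3′UTR cut into 20 bins, the first held 8.62% of the kept and 4.60% of the new peaks, and the last held 1.19% and 2.83%. New peaks on hILO-only genes resembled kept ones more, with 24.0% near the stop codon and a median of 373 nt after it.

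**Figure D2:**
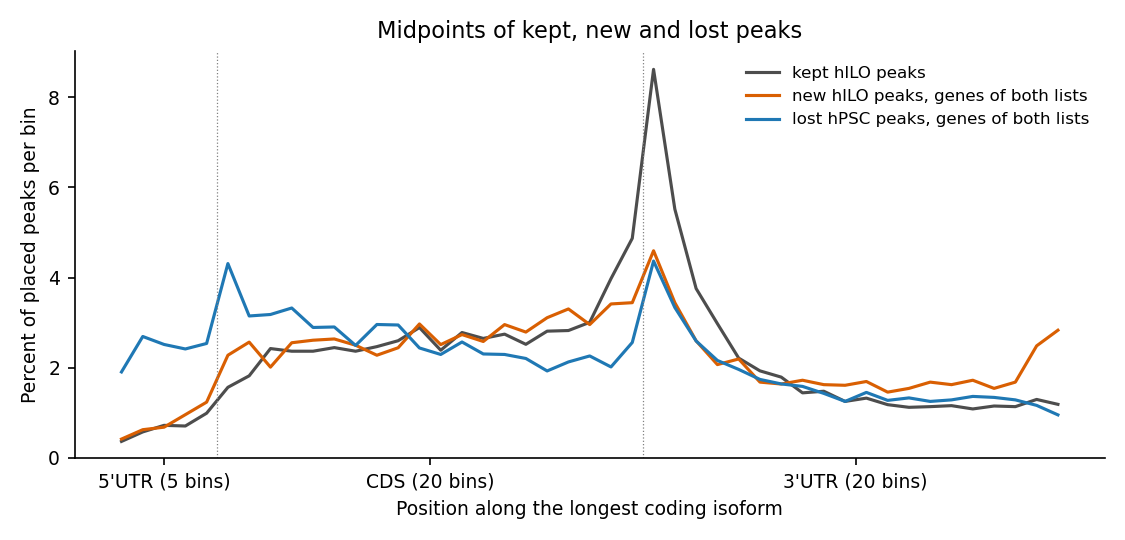
Percent of placed peaks in each bin (y axis) along the longest coding isoform (x axis, 5 bins for the 5′UTR, 20 for the CDS and 20 for the 3′UTR), for kept hILO peaks (grey) and, on genes of both lists, new hILO peaks (orange) and lost hPSC peaks (blue). Kept peaks reach 8.62% in the first bin of the 3′UTR against 4.60% for new and 4.37% for lost peaks, lost peaks are more frequent than the others through the 5′UTR and the first bin of the CDS, and new peaks are more frequent in the last bin of the 3′UTR.

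The largest difference in place was in the exon. Short internal exons, under 400 nt, held the midpoint of 14.3% of kept peaks (13.7% to 14.9%) and of 37.6% of new peaks on genes of both lists (36.4% to 38.7%, 2705 of 7203). On hILO-only genes the share was 26.6%. Long internal exons, of 400 nt or more, held 17.7% of kept and 7.28% of new peaks, and the last exon 60.7% and 49.9%. In the CDS alone 25.6% of kept and 66.7% of new peaks lay in short internal exons. The PCSK1 and DST sites shown above belong to such peaks, with a log2 enrichment of 1.78 ± 0.10 and 0.92 ± 0.05 on 273 and 1563 input reads.

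The excess in short internal exons was present in each stratum examined. It was 40.6% of new against 14.8% of kept peaks in genes with at least 200 input reads in peaks in both lists. It held from low to high GC content, with 34.95% against 16.36% at 35% to 40% GC and 40.4% against 11.7% at 60% to 65%. New peaks spanned several exons more often, 36.6% against 23.3%, and among peaks on a single exon the shares were lower, at 15.2% and 3.87%. Within genes, 3016 genes had both new and kept placed peaks, and the share in short internal exons was higher among the new ones in 1113, lower in 377 and equal in 1526. The share in the 3′UTR was higher in 866 and lower in 930 of the same genes.

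New peaks also held fewer of the core sites. GGAC occurred in 65.3% of kept and 43.3% of new peaks on genes of both lists, at 4.74 and 3.37 per kilobase, on a median exonic length of 225 and 150 nt. Any DRACH site occurred in 95.5% and 89.3%. The coverage of the classes was alike, with a median of 298 and 317 input reads, and so was the median log2 enrichment, 1.53 and 1.51.

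Lost hPSC peaks lay nearer to the start of the transcript. On genes of both lists the 5′UTR held 3.18% of retained peaks (2.90% to 3.48%) and 12.1% of lost ones (11.4% to 12.8%), and the first exon 4.05% and 15.9%. In the CDS the median position was 59.4% of the way to the stop codon for retained and 42.4% for lost peaks. A midpoint near the stop codon was found for 25.3% and 12.8%. Short internal exons held 16.9% and 14.6%, and on single exons alone 5.94% and 8.13%. Within genes with both kinds, 3480 in number, the 5′UTR share was higher among the lost peaks in 718, lower in 127 and equal in 2635. The share in short internal exons was higher among the lost peaks in 607 and lower in 554 of the same genes.

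GC content and depth moved with the loss. The median GC content was 46.8% in retained and 54.2% in lost peaks on genes of both lists, and the median input was 92 and 53 reads. At equal GC content the difference in the 5′UTR share was still present, with 0.99% of retained and 4.35% of lost peaks at 35% to 40% GC, and 6.98% and 13.5% at 60% to 65%. In genes with 200 or more input reads in each list the shares were 2.99% and 12.2%. GGAC occurred in 62.6% of retained and 52.0% of lost peaks. On hPSC-only genes 9.62% of peaks lay in the 5′UTR and 22.3% near the stop codon.

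The strength of kept peaks was compared between each kept hILO peak and the hPSC peak sharing most bases. Because each list was scaled by itself, a common shift of these differences has no meaning of its own, and peaks are compared within them. Over 17243 pairs the median log2 enrichment was 1.83 in hPSCs and 1.53 in hILOs, with a median difference, hILO minus hPSC, of -0.32 (-0.33 to -0.30). The 10777 pairs in which each peak had 50 or more input reads, on 6458 genes, again had a median of -0.32, with quartiles of -0.71 and 0.06. A peak was higher in hILOs by 1 or more on the log2 scale in 144 pairs, 1.34%, and lower by that much in 1382, 12.8%. Both counts are taken around 0 and include the common shift, so their imbalance gives no direction.

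The difference varied with the place and the composition of the peak. In short internal exons the median was -0.20 (-0.22 to -0.17), with 2.42% higher and 7.28% lower by 1 or more. It was -0.36 in last exons, -0.32 in long internal exons and -0.39 in first exons. By region it was -0.38 in the 5′UTR, -0.29 in the CDS and -0.37 in the 3′UTR. It also ran with GC content, from -0.08 (-0.15 to 0.00) at 30% to 35% GC to -0.45 (-0.53 to -0.39) at 65% to 70%. The deposited enrichment includes an offset that depends on GC content and differs between the lists, and its part in this trend was not tested.

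**Figure D3:**
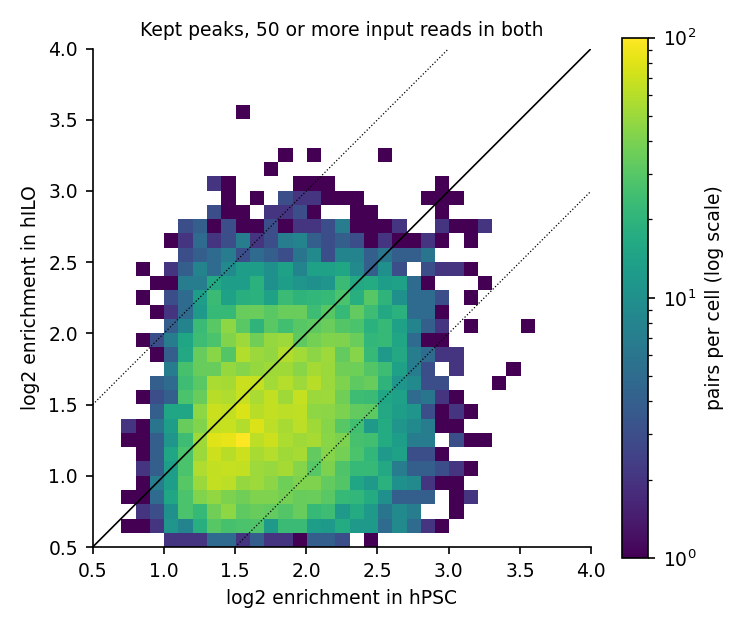
Log2 enrichment of kept peaks in hPSCs (x axis) and hILOs (y axis), for the 10777 pairs in which each peak had 50 or more input reads, coloured by the number of pairs per cell of 0.1 by 0.1 on a log scale. The solid line marks equal values and the dotted lines a difference of 1. Of the pairs 1382 lie on or below the lower dotted line and 144 on or above the upper one, counts that include the shift from the separate scaling of the lists.

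The extremes were picked as the largest of 10777 differences, so that they exceed their counting error says little, and this error leaves out the spread between libraries. Over these pairs the enrichments in hPSCs and hILOs had a Spearman correlation of only 0.17. Among the pairs with 50 or more input reads in each peak, the largest difference upward was in the CDS of the zinc finger gene ZNF658, at chr9:66918355-66918529, from 1.52 in hPSCs on 530 input reads to 3.57 in hILOs on 86, a difference of 2.05 ± 0.18. It sat inside a wider hPSC peak of 1200 nt, against 175 nt in hILOs, so the pair compares stretches of unequal length. SRGAP2C, a human-specific gene copy (1.65 ± 0.18), the kinase STK26 (1.65 ± 0.17) and the antisense transcript ZBED3-AS1 (1.65 ± 0.25) followed. The hPSC peak of ZBED3-AS1 had 8253 exonic nt against 175 nt in hILOs, and that of SRGAP2C 175 against 50 nt, so these pairs are unequal too. SRGAP2C shares long stretches with its paralogues, so its reads could have been split among them. For the histone acetyltransferase KAT6A the difference was 1.60 ± 0.14.

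Among the same pairs the largest difference downward was in the 3′UTR of SGPL1, the lyase that ends sphingosine phosphate signalling, at chr10:70877250-70877549. Its log2 enrichment was 3.00 on 205 input reads in hPSCs and 0.63 on 857 in hILOs, a difference of -2.37 ± 0.12. The membrane protein gene TMEM229B (-2.36 ± 0.13), the transcriptional kinase CDK13 (-2.31 ± 0.15), the mitochondrial peptidase PMPCB (-2.31 ± 0.14), the noncoding RPSAP52 (-2.24 ± 0.15) and the ectonucleotidase ENTPD1 (-2.19 ± 0.15) followed. Each of these 6 peaks had more input reads in hILOs than in hPSCs. The exonic lengths were unequal here too, with 475 nt in hPSCs and 1125 nt in hILOs for CDK13, and 150 and 250 nt for TMEM229B.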

How the data were processed

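m6A-seq of hPSCs and hILOs (2 IP and 2 input libraries each) was used as the authors' peak lists. The authors used fastp for trimming, HISAT2 for alignment to GRCh38 with at most 1 alignment kept per read, and exomePeak2 for peak calling on all libraries of a population together. For each peak the deposited columns give IP and input read counts pooled over libraries, a log2 enrichment of IP over input, and a p-value with its adjusted p-value. No value per library was in these columns, so no count model, test or spread between replicates was possible, and library totals were not used here.

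Peaks were reduced to the exons of their gene in GENCODE 44, whose identifiers matched 99.8% of peaks of each list, and 73.2% of hPSC and 74.3% of hILO peaks were placed on the longest coding isoform. An hILO peak was kept when over 50% of its exonic length was covered on its strand by hPSC peaks, and an hPSC peak was retained by the mirrored rule. DRACH and GGAC sites were searched on the transcript strand. Counting errors of log2 enrichments were computed from both counts with 0.5 added to each, taking them as sums over libraries. PCR copies are not independent molecules, so it is approximate. Scripts ran on python 3.11.15 with numpy 2.4.6, pandas 2.3.3 and scipy 1.17.1, and were tested on simulated peaks.

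The lists of genes, the members and the comparisons were chosen with earlier results of these data known. Genes were named as markers or by input reads within lists, and by rule elsewhere: the 8 private genes with the most peaks or IP reads per kilobase, the 6 genes with the most new, lost or kept peaks, and the 6 largest differences in each direction among kept pairs with at least 50 input reads in each peak. One gene that this rule names is not reported here. Alternatives changed the enrichment, p and input thresholds, list size, overlap, genes counted and isoform. Counting 1 assigned gene per peak, and the alternatives and strata for the shares in short internal exons and the 5′UTR, were chosen after seeing the data.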

Additional observations from a re-analysis of the deposited data

How the results depend on the processing

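No paired analysis was possible because each list pools the libraries of a population, and for the same reason no library could be left out. Of 105 values under alternatives 37 stayed within 1.5 times the reported number, for numbers of genes, or within the 95% interval of the reported share or median, and 68 moved. The cause was not tested. The order of hPSC-only and hILO-only genes turned as given in the report. Under every alternative run for it, short internal exons held a larger share of new than of kept peaks and the 5′UTR a larger share of lost than of retained peaks. The median difference in log2 enrichment, hILO minus hPSC, is given only to show how far it moved, since the separate scaling of the lists can set its size and its sign. Shares here are over all new and all lost peaks, for which the reported ones are 34.8% of new peaks in short internal exons, and 41.9% of new and 36.9% of lost peaks in the 3′UTR. The filter on reads removes peaks of shallow input by construction, and the part of depth in which hPSC peaks passed the filters on p was not tested.

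An enrichment of at least 3 left 22609 hPSC and 14684 hILO peaks, with 6180 genes in both. Of these peaks 39.8% were kept and 26.3% retained. The 3′UTR held 41.6% of kept, 43.9% of new and 41.4% of lost peaks, short internal exons 11.7% of kept and 28.0% of new, and the 5′UTR 2.14% of retained and 6.86% of lost. The median difference was -0.11. At p below 1e-05, with 4156 hILO-only genes, 40.1% were kept and 53.1% retained, short internal exons held 30% of new peaks, the 5′UTR 2.83% of retained and 10.2% of lost, and the difference was -0.33. At p below 1e-10, with 6089 genes in both, 2245 in hPSCs only and 4876 in hILOs only, 28.3% were kept and 44.5% retained. The 3′UTR then held 41.3% of kept and 39.7% of lost peaks, short internal exons 27.1% of new, the 5′UTR 2.60% of retained and 7.84% of lost, and the difference was -0.34. With at least 50 input reads, with 2237 and 4535 private genes, 36.8% were kept and 52.2% retained. The 3′UTR held 41.5% of kept and 42.8% of new peaks, short internal exons 15.6% of kept and 28.5% of new, and the 5′UTR 10.7% of lost. With lists of equal size 49.9% were kept and 51.7% retained, with 32.5% of new peaks in short internal exons, 10.7% of lost peaks in the 5′UTR and a difference of -0.34.

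Protein-coding identifiers alone gave 2185 hPSC-only and 1654 hILO-only genes. Any overlap gave 63.0% kept and 55.6% retained, 16.7% of kept peaks in short internal exons, and 3.51% of retained and 12.3% of lost peaks in the 5′UTR. An overlap of over 50% of both peaks gave 42.1% kept and 36.1% retained. In genes with 200 or more input reads in each list 66.9% were kept and 59.98% retained, with 40.3% of kept, 39.8% of new and 33.2% of lost peaks in the 3′UTR, 40.6% of new peaks in short internal exons and 12.2% of lost peaks in the 5′UTR. The canonical isoform gave 2.62% of retained and 10.1% of lost peaks in the 5′UTR. Peaks on 1 exon, chosen after seeing the data, gave 3.87% of kept and 13.2% of new peaks in short internal exons, and 2.78% of retained and 10.5% of lost in the 5′UTR. Peaks of 45% to 50% GC, also chosen after seeing the data, gave 16.1%, 42.7%, 2.41% and 6.62%.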

Other observations

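Gene families taken by the start of the symbol differed in how their peaks were divided, against 70.6% in both, 16.6% in hPSCs only and 12.8% in hILOs only for all coding genes. Of 421 zinc finger genes (ZNF) with a peak 369 had it in both populations, 41 in hPSCs only and 11 in hILOs only. Their peaks numbered 1716 in hPSCs and 1299 in hILOs. Of 252 solute carriers 166 had peaks in both, 45 in hPSCs only and 41 in hILOs only. Ribosomal protein genes had 35, 9 and 16 of 60, and proteasome subunits 29, 6 and 11 of 46. Intergenic lncRNAs (LINC) had 97, 136 and 98 of 331, beside 1154, 987 and 703 genes among all lncRNAs with a peak.

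Of 60 potassium channel genes with a peak 22 had it in both, 23 in hPSCs only and 15 in hILOs only. KCNJ3, an inward rectifier, had 4 hILO peaks with 12775 input reads, and the leak channels KCNK17 and KCNK16 had 5 with 10509 and 2 with 1056, all without a peak in hPSCs. KCNN1, a calcium-activated channel, and KCNK6 had 6 peaks with 1937 and 7 with 1589 input reads in hPSCs only. Of 31 collagen genes 17 had peaks in both, 12 in hPSCs only and 2 in hILOs only. COL6A2 had 6 peaks with 3785 input reads in hPSCs only, COL3A1 had 3 with 1196 and COL4A2 3 with 2617 in hILOs only. The basement membrane collagen COL4A1 went from 2 to 6 peaks, with 6639 and 20435 input reads. These families were not tested against other genes.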
